A study of Mus musculus with 1307 samples.

Results

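The genes described here present peptides on MHC class I, and they were followed through every cell type of the adult mouse heart that the study captured. The group holds 9 genes, chosen by name: H2-D1, H2-K1, B2m, Tap1, Tap2, Tapbp, Psmb8, Psmb9 and Nlrc5. All 9 had a row among the 46517 genes of the count table, of which 29602 had a count in any cell. The study sorted single cells from dissociated hearts of mice labelled 8 to 30 weeks old into 384-well plates and sequenced them with Smart-Seq2, a full-length method without molecular identifiers. The labels name no treatment.

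There were 1307 cells. Of these, 949 came from 3 mice of the strain ACTA2GFP:CSPG4dsRED, called double-reporter mice below, which carry reporters named for smooth muscle actin (Acta2) and NG2 (Cspg4). Another 352 cells came from 3 C57BL/6 mice, of which 1 mouse gave 347. The strains CSPG4dsRED and ACTA2GFP gave 3 cells each. Double-reporter mouse 3 is labelled female and mice 1 and 2 male, whereas the study's design text speaks of male mice. Each large mouse filled its own plate, so mouse and plate cannot be told apart, and nearly all endothelial cells came from C57BL/6 mouse 1. The sort gate is not given in the sources used here. Total counts per cell ran from 50476 to 811982, with a median of 274702, and the medians of the 4 large mice lay between 208888 and 340988.

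MHC class I molecules carry short peptides from inside a cell to its surface, where CD8 T cells and natural killer cells read them. H2-D1 and H2-K1 encode the classical heavy chains and B2m the light chain that both need. The peptides are cut by the proteasome, into which Psmb8 and Psmb9 are built as immunoproteasome subunits in place of Psmb5 and Psmb6. Tap1 and Tap2 form the transporter that carries peptides into the endoplasmic reticulum, and tapasin, the product of Tapbp, bridges the transporter to the empty heavy chain. Nlrc5 encodes a transcriptional activator of class I genes. Interferon gamma is known to induce most of these genes in many tissues, and endothelium is known for high class I levels.

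Of the 9 genes, 7 lie on chromosome 17 (GRCm38) and span the MHC region. H2-K1 lies at 33996017 to 34000347 on the minus strand, Tapbp at 33915899 to 33929292, Psmb9 at 34181987 to 34187764 on the minus strand, and Tap1 at 34187553 to 34197225. Psmb8 follows at 34197721 to 34201454, Tap2 at 34203527 to 34216321, and H2-D1 stands further along at 35262730 to 35267499. B2m lies on chromosome 2 at 122147686 to 122153083 and Nlrc5 on chromosome 8 at 94434356 to 94527272. Counts were taken over whole genes, and the strand setting is not given in the sources used here. Tap1 and Psmb9 start head to head and share 212 exon bases, or 3.87% of the Tap1 exons and 5.79% of those of Psmb9. Exons of antisense genes cover 24.9% of the Tapbp exon bases (Gm19412), 14.7% of those of Psmb8 (Gm20496) and 14.1% of those of Tap2 (Gm15821), and reads there cannot be told apart without strand. Of all 50-base windows of the longest coding transcript of H2-D1, 14.3% also occur in another gene. H2-Q7, H2-K1 and H2-T23 are among them, so part of the H2-D1 reads may have been assigned elsewhere. The share was 8.79% for H2-K1 and 0 for B2m, Psmb8, Psmb9 and Nlrc5.

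The promoters of the light chain, the heavy chains and Tap1 are shown because H2-D1, H2-K1 and B2m were the members called between pericytes and both smooth muscle classes, while Tap1, their partner in peptide transport, was not. Each window runs from 250 bases before to 50 bases after the start in RefSeq (GRCm38.p6), 5′ to 3′ on the gene's strand. The windows are chr17:35262844-35263143 (plus strand) for H2-D1, chr17:34000298-34000597 (minus strand) for H2-K1, chr2:122147437-122147736 (plus strand) for B2m and chr17:34187306-34187605 (plus strand) for Tap1. Capitals mark matches, on either strand, to 4 patterns taken up with these windows in view: GAANNGAAA, as in interferon response elements, GGGNNNNNCCC, as in NF-kappaB sites, TGACG, as in the X2 box, and CCAAT, as in the Y box.
H2-D1: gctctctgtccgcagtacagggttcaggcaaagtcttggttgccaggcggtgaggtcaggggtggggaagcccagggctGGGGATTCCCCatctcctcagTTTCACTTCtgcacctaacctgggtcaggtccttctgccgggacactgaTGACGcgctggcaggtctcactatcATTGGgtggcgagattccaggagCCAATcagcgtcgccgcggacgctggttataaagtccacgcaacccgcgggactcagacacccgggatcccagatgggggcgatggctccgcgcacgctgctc
H2-K1: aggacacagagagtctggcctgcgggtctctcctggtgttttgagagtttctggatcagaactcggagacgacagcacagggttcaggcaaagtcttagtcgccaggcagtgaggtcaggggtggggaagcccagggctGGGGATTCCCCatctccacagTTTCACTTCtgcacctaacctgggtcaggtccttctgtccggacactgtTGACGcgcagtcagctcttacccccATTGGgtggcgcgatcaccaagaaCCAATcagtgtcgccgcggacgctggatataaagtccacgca
B2m: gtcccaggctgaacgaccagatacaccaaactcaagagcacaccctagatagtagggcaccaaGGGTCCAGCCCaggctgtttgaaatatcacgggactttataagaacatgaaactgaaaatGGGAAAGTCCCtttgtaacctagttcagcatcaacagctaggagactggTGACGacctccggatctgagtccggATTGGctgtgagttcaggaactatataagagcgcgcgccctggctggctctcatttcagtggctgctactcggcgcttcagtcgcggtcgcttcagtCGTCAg
Tap1: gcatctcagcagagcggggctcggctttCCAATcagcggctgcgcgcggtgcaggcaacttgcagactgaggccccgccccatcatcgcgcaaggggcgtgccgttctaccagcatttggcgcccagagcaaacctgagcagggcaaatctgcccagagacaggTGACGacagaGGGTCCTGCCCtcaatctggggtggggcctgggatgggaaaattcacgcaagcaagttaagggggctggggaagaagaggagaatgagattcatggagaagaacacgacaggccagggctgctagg

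H2-D1 and H2-K1 matched all 4 patterns in the same order and shared a run of 47 bases. B2m and Tap1 matched 3 each, with no GAANNGAAA in these windows. The B2m window holds gaaactgaaa, in which GAA and GAAA are spaced wider than in the pattern, so it is not marked. A missing match therefore does not show that an interferon response element is absent. Among 32544 promoter windows of the same length, GAANNGAAA occurred in 7.57%, GGGNNNNNCCC in 14.01%, TGACG in 20.9% and CCAAT in 37.4%. Of the other members, Psmb9 matched 3 patterns in a window that shares 275 bases with that of Tap1, Tapbp matched CCAAT alone and Psmb8 matched none of them. A match is a stretch of letters and not a tested binding site.

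Cells were placed in classes by the level of marker genes that did not include any of the 9 members. Each name below stands for cells that carry those markers: Kcnj8, Abcc9 and Vtn among others for pericytes, Myh11, Acta2 and Cnn1 for smooth muscle, and Pecam1 and Cdh5 for endothelium. Smooth muscle was further divided at 200 CPM (counts of a gene per 1000000 counts of its cell or sum) of Rgs5, a regulator of G-protein signalling. In all, 1021 cells fell into the 12 classes described, 151 were fibroblasts and 33 endothelial cells of no named type, and 92 could not be placed. The geometric mean of the pericyte markers was 1001 CPM in pericytes and 11.6 CPM in Rgs5-high smooth muscle, a difference that the rule itself sets. For each class and mouse with at least 5 cells the counts were summed, and levels below are CPM of these sums unless a level is said to be per cell.

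**Figure D1:**
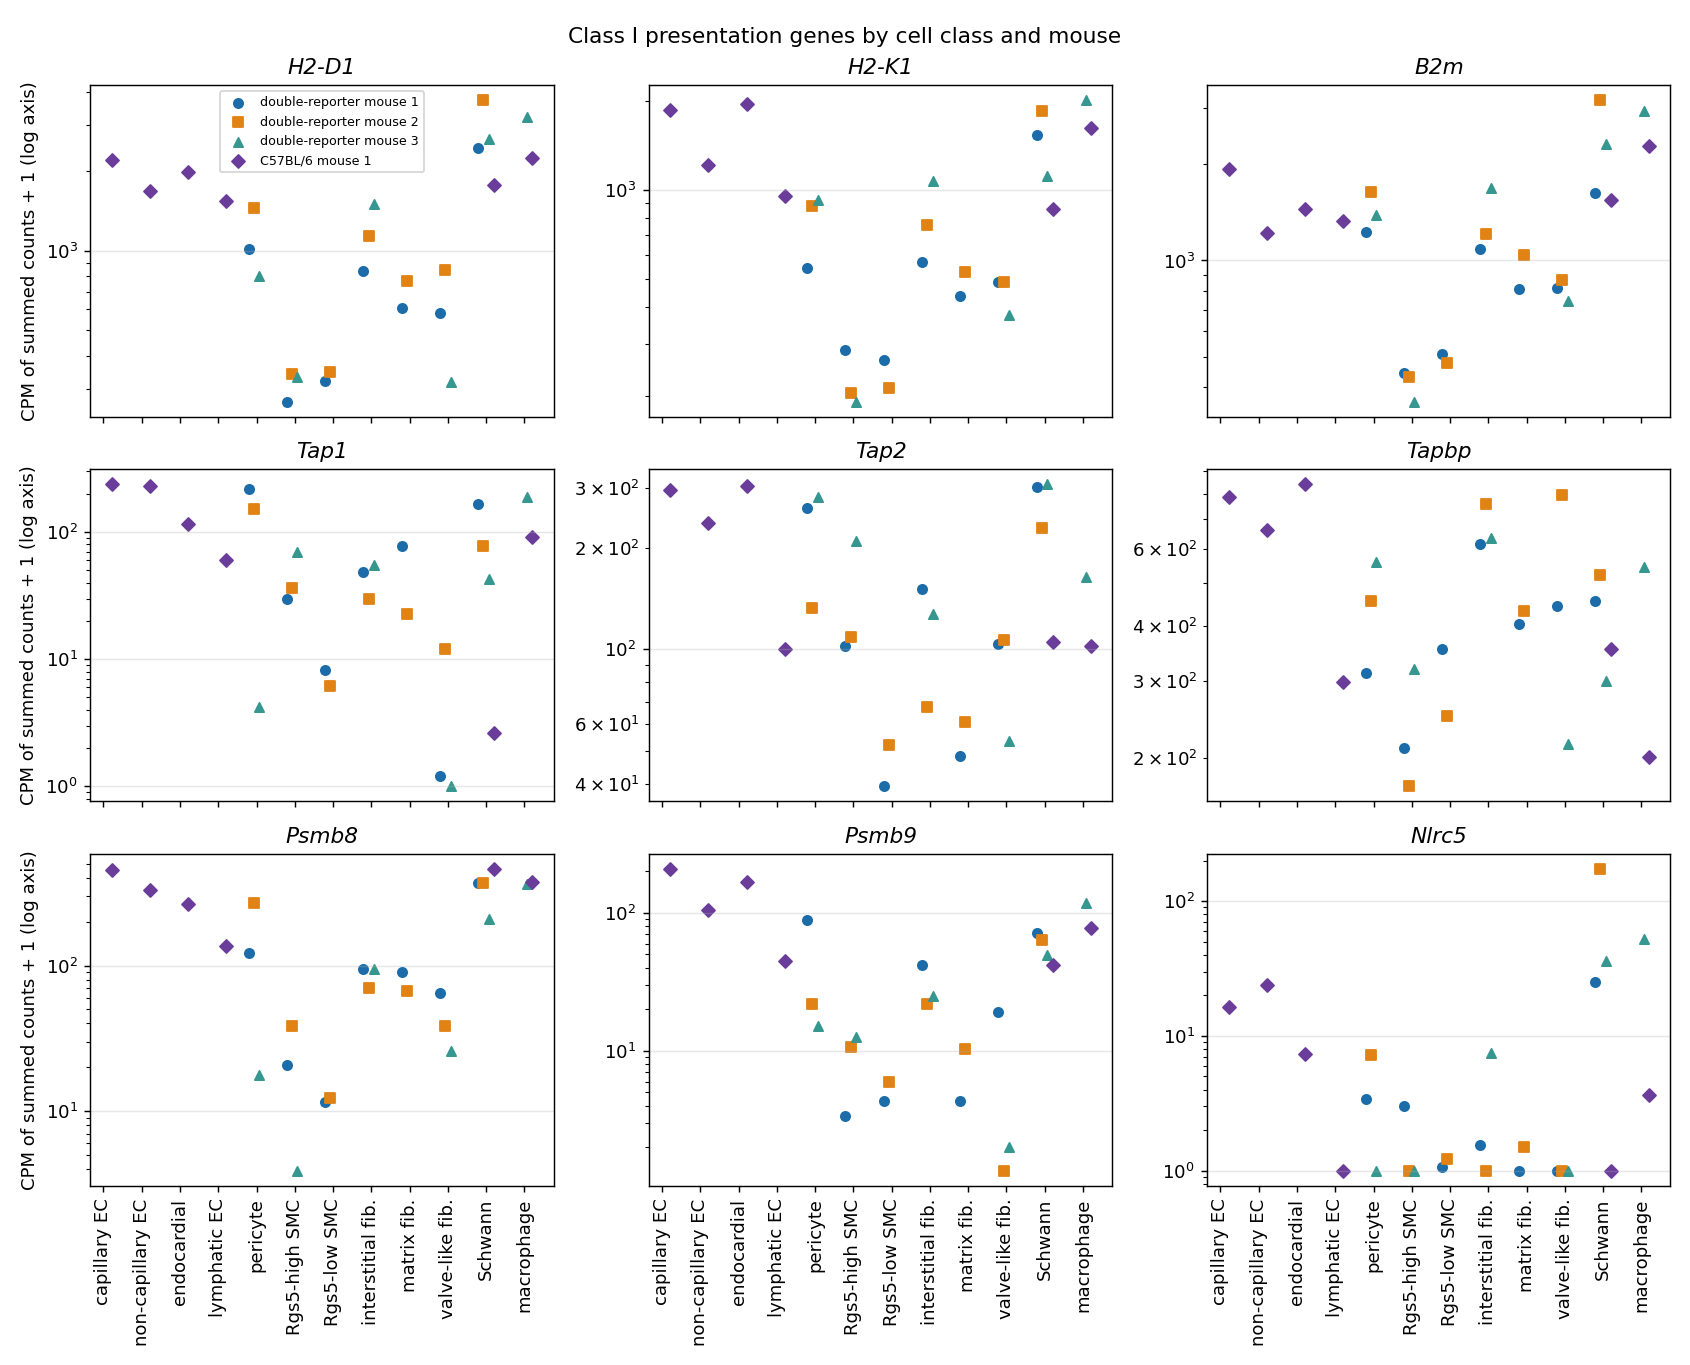
Summed level of each of the 9 genes, as CPM plus 1 on a log axis, by cell class, with 1 point for each mouse with at least 5 cells of the class and a colour for each mouse. H2-D1 in Rgs5-high smooth muscle lies between 266 and 339 CPM, below the pericytes at 798 to 1452 CPM, and Schwann cells and endothelium reach 1546 to 3726 CPM.

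By class mean, H2-D1, H2-K1 and B2m were lowest in smooth muscle. Summed, the 3 genes stood at 879 to 1091 CPM in smooth muscle, 4172 to 8752 CPM in Schwann cells and 3832 to 6000 CPM in endothelium, where lymphatic and non-capillary cells fell within the range of interstitial fibroblasts, 2490 to 4255 CPM. In Rgs5-high smooth muscle of double-reporter mice 1, 2 and 3, H2-D1 stood at 266, 339 and 330 CPM, and in Rgs5-low smooth muscle of mice 1 and 2 at 320 and 345 CPM. Pericytes, the mural cells of capillaries, had 1013, 1452 and 798 CPM of H2-D1. Interstitial fibroblasts had 836, 1133 and 1501 CPM. Pericytes and interstitial fibroblasts overlapped with each other, and every mouse of either class lay above every smooth muscle value. Matrix fibroblasts, marked by Cilp and Thbs4, had 605 and 768 CPM of H2-D1, and valve-like fibroblasts, marked by Wif1 and Chad, 577, 842.5 and 316.5 CPM. These fibroblast classes lay between the interstitial cells and smooth muscle, and the lowest valve-like value fell within the smooth muscle range. Schwann cells, the glia of cardiac nerves, had 2456, 3726 and 2640 CPM in the double-reporter mice and 1768 CPM in the 5 cells of C57BL/6 mouse 1. All 4 Schwann values lay above every fibroblast, pericyte and smooth muscle value.

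H2-K1 took the same order over the double-reporter classes. It was 286, 202.6 and 190 CPM in Rgs5-high smooth muscle of mice 1 to 3 and 541, 880 and 921 CPM in pericytes, without overlap. Its mean was 1499 ± 368 CPM (SD, n = 3 mice) in Schwann cells, 799 ± 254 CPM in interstitial fibroblasts, 781 ± 208 CPM in pericytes and 226 ± 52.1 CPM in Rgs5-high smooth muscle. Mice of the 2 smooth muscle classes overlapped, as did those of pericytes and interstitial fibroblasts, whereas the valve-like fibroblasts stood clear of Rgs5-low smooth muscle. B2m was 442, 431 and 359 CPM in Rgs5-high smooth muscle, 1224, 1641 and 1386 CPM in pericytes and 1087, 1212 and 1683 CPM in interstitial fibroblasts. In Schwann cells it was 1627, 3181 and 2309 CPM, with the lowest of these inside the pericyte range. Levels were also divided by exon length, taken over the exons of all transcripts of a gene. B2m was then the highest of the 9 genes in capillary endothelium, at 2247 CPM per kilobase. H2-D1 had 853, H2-K1 636 and Nlrc5 1.83. The length was 860 bases for B2m, 2579 for H2-D1 and 2938 for H2-K1. The longest coding transcript is shorter for H2-K1 than for H2-D1, so their order depends on the length used.

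In endothelium, class I levels came from 1 mouse and carry no test. The 206 capillary endothelial cells of C57BL/6 mouse 1 had 2199 CPM of H2-D1 in the sum, with a 95% exact Poisson interval of 2188 to 2211 CPM that covers counting error only. Their H2-K1 was 1868 CPM and their B2m 1932 CPM. The 38 endocardial cells, which line the heart chambers, had 1995 CPM of H2-D1 and 1957 CPM of H2-K1. The 16 non-capillary cells, marked by arterial genes, had 1677 CPM of H2-D1, and the 11 lymphatic cells 1546 CPM. B2m was 1448 CPM in endocardium and 1219 CPM in non-capillary cells, both within the pericyte or interstitial range. Among the 4 endothelial classes the order of H2-D1 thus ran from capillary to lymphatic, and that of H2-K1 put endocardium first. Macrophages of double-reporter mouse 3 had 3213 CPM of H2-D1 in 30 cells and those of C57BL/6 mouse 1 had 2248 CPM in 6 cells.

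A few cells crossed the division between plates. The 5 endothelial cells of double-reporter mouse 2 had 2532 CPM of H2-D1 and 2165 CPM of H2-K1, and the 2 of mouse 1 had 2010 and 2014 CPM. The 3 smooth muscle cells of C57BL/6 mouse 1 had 559 CPM of H2-D1 and its 3 fibroblasts 1390 CPM. In H2-D1 and H2-K1 these few cells kept endothelium above smooth muscle on either side. The endothelial cells of mouse 1 were both lymphatic. Tap2 did not keep this order: it was 76.0 and 72.6 CPM in the endothelial cells of double-reporter mice 1 and 2, below the Rgs5-high smooth muscle mean of 139 CPM. The 2 pericytes of C57BL/6 mouse 1 were above its smooth muscle in H2-D1 (626 against 559 CPM) and H2-K1 (617 against 180 CPM). They were below it in B2m (312 against 733 CPM) and Psmb8 (2.53 against 38.8 CPM). All these cell numbers are too small for a test.

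In pericytes and Rgs5-high smooth muscle the immunoproteasome genes Psmb8 and Psmb9 varied more between mice than the heavy chains did. This did not hold in every class, as Psmb8 varied less than H2-D1 in interstitial fibroblasts. Psmb8 was 19.6, 37.7 and 2.89 CPM in Rgs5-high smooth muscle and 10.54 and 11.2 CPM in Rgs5-low smooth muscle. It was 121, 269 and 16.6 CPM in pericytes, 93.5, 69.3 and 94.3 CPM in interstitial fibroblasts and 369, 368 and 208 CPM in Schwann cells. Schwann cells lay above every smooth muscle and fibroblast value, while the pericytes of mouse 3 fell within the smooth muscle range. Psmb9 was lower throughout, from 2.40 to 11.6 CPM in smooth muscle, 14.04 to 88.0 CPM in pericytes and 48.8 to 70.5 CPM in Schwann cells of the double-reporter mice. Capillary endothelium had 455 CPM of Psmb8 and 208 CPM of Psmb9, and the Psmb9 value lay above those of all other classes.

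Tap1 varied widely between mice and between cells. It was 216, 152 and 3.19 CPM in pericytes, and 29.0, 35.4 and 68.1 CPM in Rgs5-high smooth muscle. The 3.19 CPM came from 9 cells. In Rgs5-high smooth muscle of mouse 3, 97.6% of the Tap1 counts came from 1 of 15 cells, and in Rgs5-low smooth muscle of mouse 1, 94.2% came from 1 of 39. Valve-like fibroblasts had 0.200, 11.01 and 0 CPM of Tap1, where a count of 0 in mouse 3 allows up to 1.51 CPM (3 counts over the sum). Tap2, its transporter partner, was more even, at 102, 108 and 209 CPM in Rgs5-high smooth muscle and 262, 132.1 and 283 CPM in pericytes, and Rgs5-low smooth muscle had 38.3 and 51.1 CPM. Tapbp was the most even of the members: its class means over double-reporter mice ran only from 233 CPM in Rgs5-high smooth muscle to 668 CPM in interstitial fibroblasts. Capillary endothelium and endocardium had 785 and 840 CPM of Tapbp.

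Nlrc5 was near the limit of detection outside Schwann cells, macrophages and endothelium other than lymphatic cells. It was 24.02, 173 and 34.9 CPM in Schwann cells of the double-reporter mice, of which 1 cell gave 64.7% of the counts in mouse 2 and 88.6% in mouse 3. The 5 Schwann cells of C57BL/6 mouse 1 had none, which allows up to 1.62 CPM. Macrophages of double-reporter mouse 3 had 51.6 CPM and capillary endothelium 15.5 CPM. Endocardium had 6.32 CPM, and non-capillary endothelium had 22.8 CPM, of which 1 of 16 cells gave 99.3%. The 11 lymphatic cells had none, which allows up to 0.873 CPM. In smooth muscle the 5 sums held 0 to 2.03 CPM, and no fold is given against such levels.

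Tests between classes used edgeR's quasi-likelihood test on the sums, with mouse as a block, over 16325 genes and 19 sums of 7 classes, and Benjamini-Hochberg adjusted p-values with a threshold of 0.05. The block takes up shifts that all classes of a mouse, and so of its plate, have in common. These p-values therefore rest on how class differences varied from mouse to mouse. That spread was estimated over all 19 sums with 10 residual degrees of freedom, and each class had 3 animals or fewer. Values are log2 fold changes with their standard error.

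Transcripts of the heavy chains and the light chain were higher in pericytes than in Rgs5-high smooth muscle. B2m was higher by 1.74 (SE 0.212, edgeR adjusted p = 0.00115), H2-D1 by 1.72 (SE 0.287, adjusted p = 0.00686) and H2-K1 by 1.75 (SE 0.313, adjusted p = 0.0107), each with all 3 pericyte values above all 3 smooth muscle values. Thus 3 of 9 members were called, where 1.28% of all genes were called and 0.57% were higher in pericytes. The median change of the 9 members was 1.72, against −0.16 over all genes tested. The other members did not pass: Psmb8 differed by 2.68 (SE 0.714, edgeR adjusted p = 0.0916), Tapbp by 0.86, Tap2 by 0.64 and Tap1 by 0.75. Several calls were lost when a mouse was left out. Without mouse 1 only B2m passed, with H2-D1 at an edgeR adjusted p of 0.231 and H2-K1 at 0.063, without mouse 2 none of the 9 passed, with B2m at 0.107, and without mouse 3 H2-K1 went to 0.083, though the changes themselves stayed between 1.49 and 2.15.

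Against Rgs5-low smooth muscle, pericytes showed the same 3 genes higher, B2m by 1.46 (SE 0.246, edgeR adjusted p = 0.00569), H2-D1 by 1.70 (SE 0.335, adjusted p = 0.0152) and H2-K1 by 1.68 (SE 0.368, adjusted p = 0.0293). That is 3 of 9 members, where 1.59% of all genes were called and 0.484% were higher in pericytes. Psmb8 differed by 3.66 (SE 0.885, edgeR adjusted p = 0.0517) and Tap2 by 2.14 (SE 0.586, adjusted p = 0.0924), short of the threshold, and all 3 Psmb8 values of pericytes lay above both of Rgs5-low smooth muscle. Without mouse 1 or without mouse 2 none of the 9 passed, with B2m at an edgeR adjusted p of 0.242 and 0.598. Without mouse 3, Psmb8 joined the other 3, at an edgeR adjusted p of 0.0103. The median of the members was 2.14 and that of all genes −0.08. The comparison with Rgs5-high smooth muscle shares the pericyte sums, so the pair of results is not independent.

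Endothelial and immune markers in these sums were measured beside the class I genes. Macrophage markers summed to 17.4 to 25.5 CPM in pericytes and 2.51 to 26.8 CPM in smooth muscle, against 18720 CPM in macrophages, and Ptprc was at most 0.638 CPM in pericytes. The 8 endothelial markers summed to 955 to 1107 CPM in pericytes, 603 to 707 CPM in Rgs5-high and 186 to 226 CPM in Rgs5-low smooth muscle, mostly from Esam, an adhesion gene that mural cells also express. Pecam1 was 62.2, 40.0 and 12.8 CPM and Cdh5 0.0533, 64.6 and 0 CPM in pericytes, against 2222 and 501 CPM in capillary endothelium. When all cells with 100 CPM of either gene were left out, 2 pericytes each of mice 1 and 2 went and the same 3 members passed in both comparisons, with H2-D1 higher by 1.64 (edgeR adjusted p = 0.00976) and 1.60 (adjusted p = 0.0219). Leaving out every cell in which the 8 endothelial markers, Esam included, reached 500 CPM removed 47 of 63, 9 of 16 and 7 of 9 pericytes, which left 2 in mouse 3, under the minimum of 5, so that its pericyte sum dropped out. After that 1 of 9 members passed in each comparison, and the changes were 1.60 and 1.52 for H2-D1, 1.18 and 1.14 for H2-K1 and 1.41 and 1.35 for B2m.

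**Figure D2:**
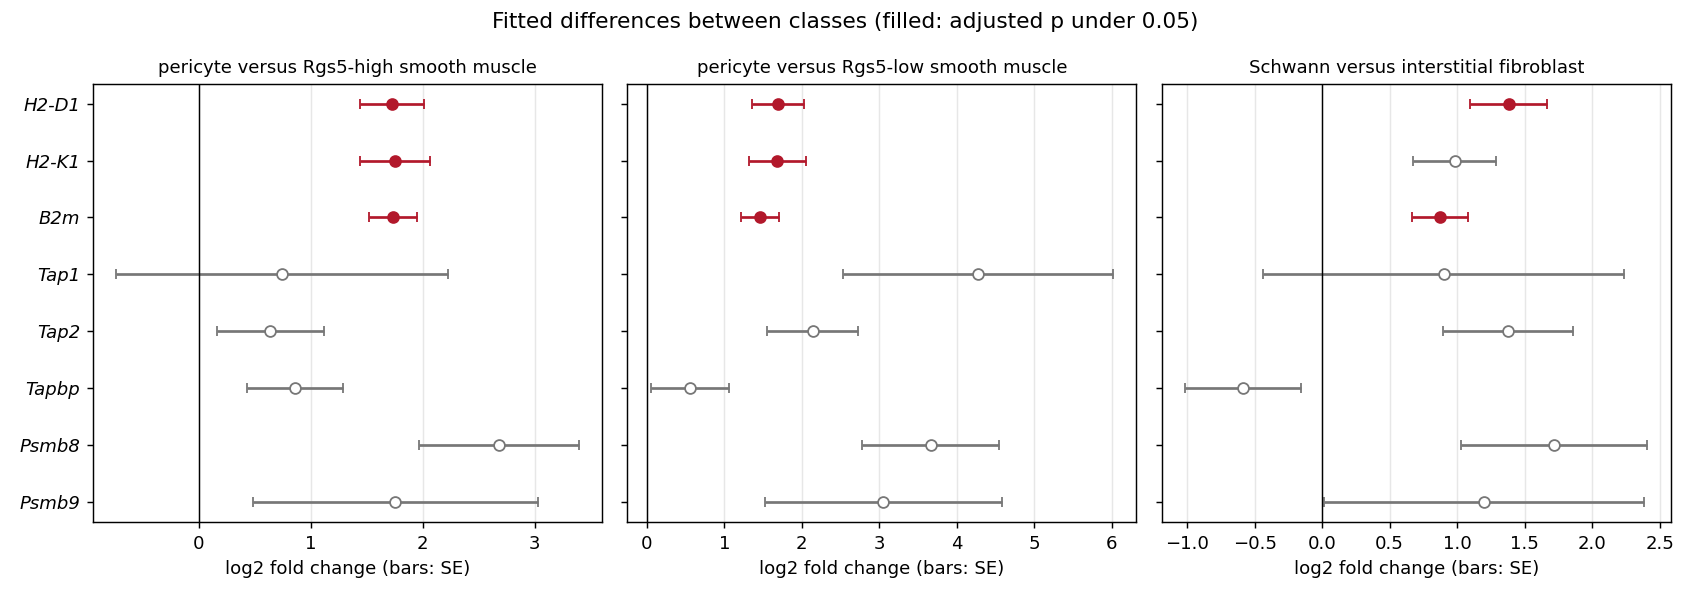
Log2 fold change of 8 members (Nlrc5 is left out) in pericytes against Rgs5-high and Rgs5-low smooth muscle and in Schwann cells against interstitial fibroblasts, with bars of 1 standard error and filled points where the edgeR adjusted p was under 0.05. H2-D1, H2-K1 and B2m are filled in both pericyte panels at 1.46 to 1.75, and Tap1 and Psmb9 carry the widest bars.

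The smooth muscle classes were not told apart by these genes. Between Rgs5-high and Rgs5-low cells none of the 9 members passed edgeR's test and 1 had an unadjusted p under 0.05 (Tap2, at 1.503 higher in Rgs5-high cells, SE 0.573), where 0.0919% of all genes were called and 4.66% had such an unadjusted p. H2-D1 differed by −0.03 (SE 0.320), H2-K1 by −0.07 (SE 0.343) and B2m by −0.27 (SE 0.233). The standard errors leave room for differences of a size seen elsewhere among these genes. DESeq2 also called none of the 9.

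Pericytes and interstitial fibroblasts had class I levels that were not told apart either. None of the 9 members passed edgeR's test or DESeq2 and none had an unadjusted p under 0.05, where 2.6% of all genes were called and 13.8% had such an unadjusted p, and the changes ran from −0.55 to 0.997. The other fibroblasts had lower values of the heavy chains and B2m that did not pass the test, by edgeR or by DESeq2. Valve-like against interstitial fibroblasts, H2-D1 differed by −0.98 (edgeR adjusted p = 0.232), H2-K1 by −0.75 (adjusted p = 0.497) and B2m by −0.64 (adjusted p = 0.322), with 0 of 9 called, 4 of 9 at an unadjusted p under 0.05, 0.466% of all genes called and 8.58% of them at such an unadjusted p. Matrix against interstitial fibroblasts, H2-D1 differed by −0.78 (edgeR adjusted p = 0.910), with 0 of 9 called, 1 of 9 at an unadjusted p under 0.05, 0.0613% of all genes called and 5.11% of them at such an unadjusted p.

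Schwann cells stood above interstitial fibroblasts in the heavy chain H2-D1 and in B2m. H2-D1 was higher by 1.38 (SE 0.285, edgeR adjusted p = 0.00843) and B2m by 0.87 (SE 0.208, adjusted p = 0.0218), whereas H2-K1 differed by 0.98 (SE 0.308, adjusted p = 0.0857) and Psmb8 by 1.72 (SE 0.691, adjusted p = 0.203). Thus 2 of 9 members were called, where 5.16% of all genes were called and 1.37% were higher in Schwann cells. Without mouse 1 the adjusted p of H2-D1 became 0.326 and that of B2m 0.308. Without mouse 2 they became 0.290 and 0.665, with the B2m change at 0.49. Without mouse 3, B2m stood at 0.0657 and H2-K1 at 0.0467. B2m passed in 5 of 16 alternatives with changes of 0.49 to 0.98, and was at an edgeR adjusted p of 0.0564 without the mouse block, 0.0513 without scaling and 0.101 without the filter on low counts. H2-D1 passed in 14 of the 16. The lowest Schwann value of B2m, 1627 CPM, lay below the highest interstitial value, 1683 CPM.

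Over all 21 pairs of the 7 classes, each adjusted over all genes within its pair, smooth muscle and Schwann cells were furthest apart in H2-D1, H2-K1 and B2m. Rgs5-high smooth muscle was below Schwann cells by −3.21 in H2-D1, −2.73 in H2-K1, −2.49 in B2m and −4.33 in Psmb8 (edgeR adjusted p = 0.0023 for Psmb8), so 4 of 9 members were called where 7.38% of all genes were. Rgs5-low smooth muscle differed from Schwann cells in 5 of 9, Tap2 being the fifth at −2.53, where 4.81% of all genes were called. Against interstitial fibroblasts, Rgs5-high smooth muscle was lower in 3 of 9 members (H2-D1 by −1.82, H2-K1 by −1.75, B2m by −1.62), where 3.45% were called, and Rgs5-low smooth muscle in the same 3, where 1.15% were called. Pericytes were below Schwann cells in 2 of 9, H2-D1 by −1.49 and B2m by −0.75, where 5.35% were called. Psmb8 passed in 3 pairs, all with Schwann cells on the higher side, the third being valve-like fibroblasts at −2.95, a pair with 4 of 9 members and 5.85% of all genes called. Matrix fibroblasts were below Schwann cells in 4 of 9, H2-D1 by −2.16 and Tap2 by −2.28 among them, where 3.62% were called. B2m was the only member called in 3 further pairs: Rgs5-high smooth muscle was below matrix fibroblasts by −1.16 (3.25% of all genes called) and below valve-like fibroblasts by −0.98 (5.3%), and pericytes were above valve-like fibroblasts by 0.76 (5.12%). No member was called between pericytes and matrix fibroblasts (2.99%), between Rgs5-low smooth muscle and matrix (1.27%) or valve-like fibroblasts (1.96%), or between matrix and valve-like fibroblasts (0%), where 2, 4, 4 and 1 of 9 members had an unadjusted p under 0.05, as had 13.9, 9.73, 12.4 and 5.2% of all genes.

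The 5 Schwann cells of C57BL/6 mouse 1 were set against the Schwann sums of the 3 double-reporter mice in a separate fit of 12394 genes. No member and 0% of all genes passed edgeR's test, while 3 of 9 members and 1899 of 12394 genes had an unadjusted p under 0.05 and the median change of all genes was −1.13. The C57BL/6 side is 1 sum from 1 mouse, so the spread comes from the other 3 mice alone and the lone sum is assumed to vary as they do. DESeq2 called 2 members, Tap1 and Nlrc5, both at or near 0 in the 5 cells. H2-D1 differed by −0.85, H2-K1 by −0.91, B2m by −0.73 and Psmb8 by 0.45. The 5 cells held 916 CPM of endothelial markers, with Pecam1 at 268 CPM and Cdh5 at 106 CPM, against 5.23 to 24.6 CPM of those markers in the double-reporter Schwann cells, and the part of this in the result was not tested.

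**Figure D3:**
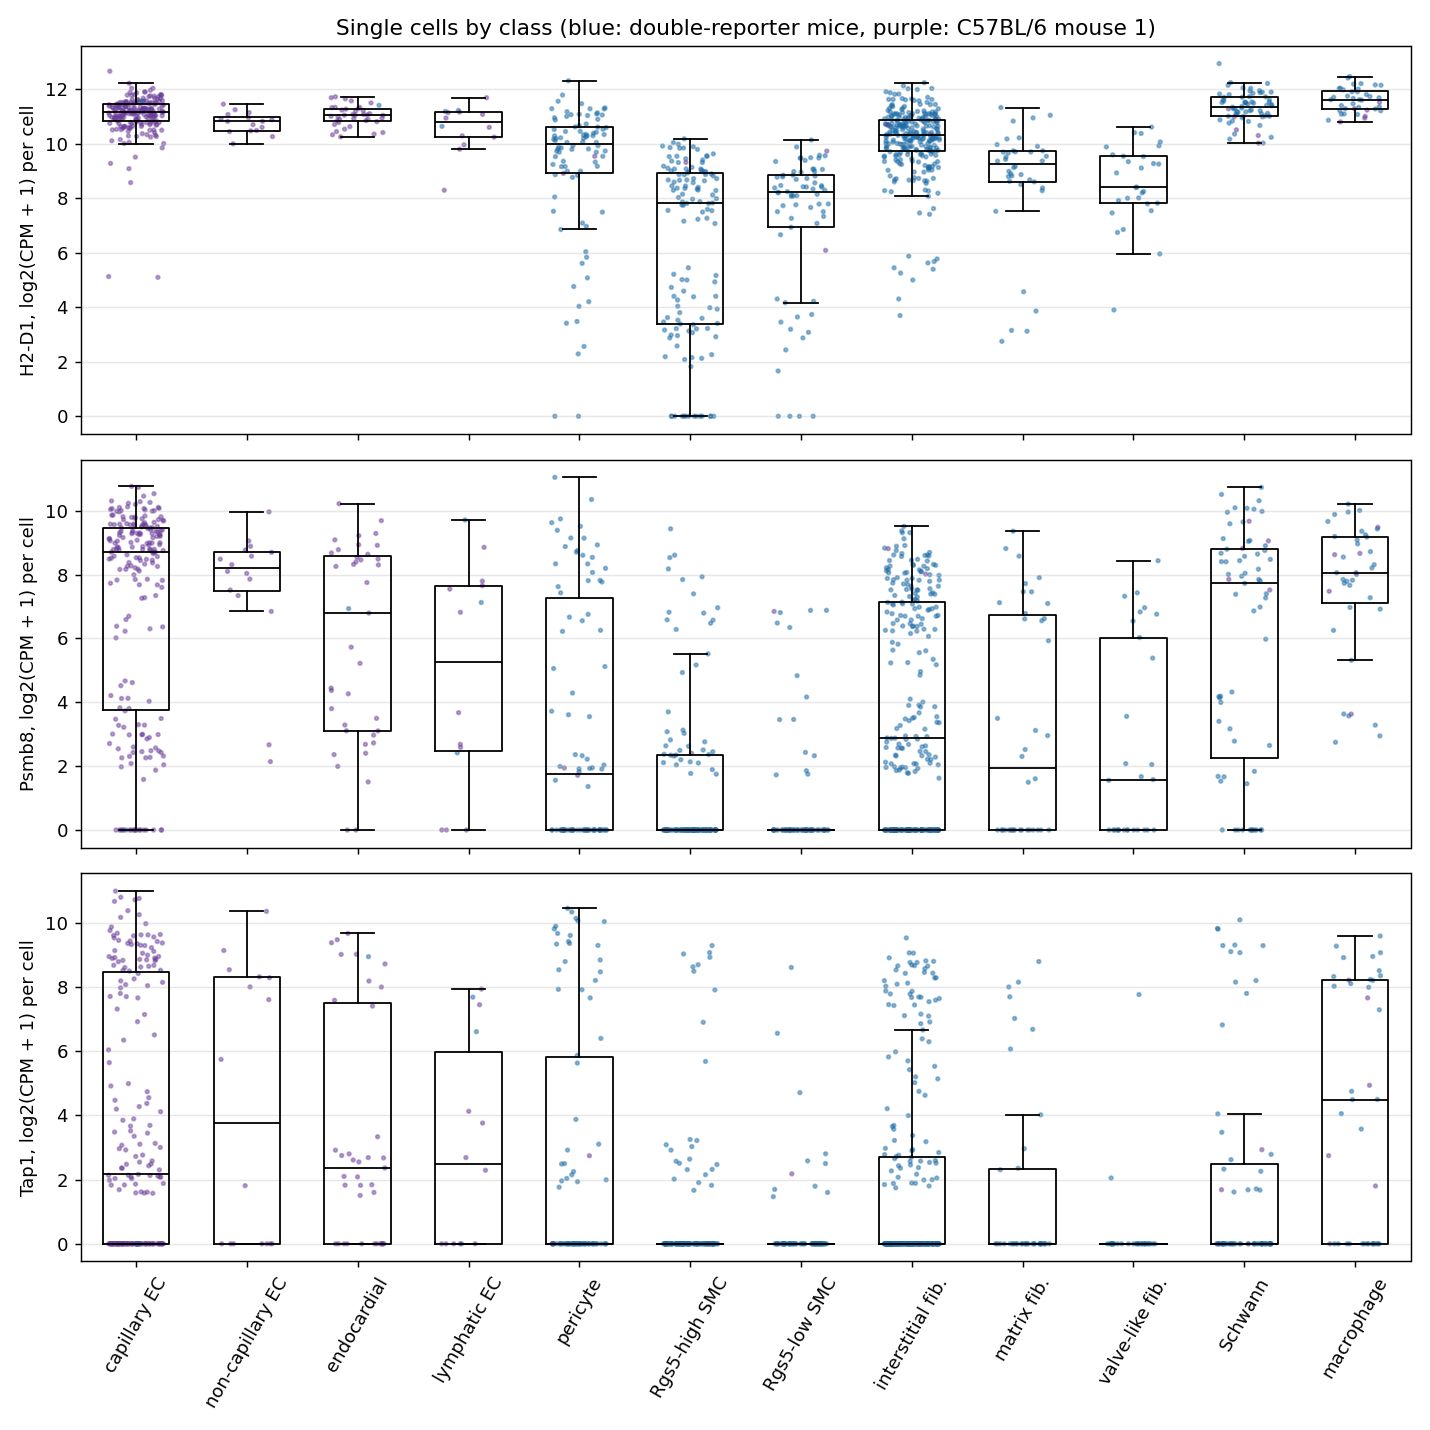
Level per cell, log2(CPM + 1), of H2-D1, Psmb8 and Tap1 in 12 cell classes, with 1 point for each cell and boxes for the quartiles. H2-D1 forms a narrow high band in capillary endothelium and reaches down to 0 in smooth muscle, and Tap1 lies at 0 in most cells of every class but capillary endothelium, non-capillary endothelium, lymphatic cells, endocardium and macrophages.

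Cell by cell, H2-D1 was present in nearly every endothelial, fibroblast and Schwann cell. In Rgs5-high smooth muscle of mouse 1 most cells also had a count, but at low and uneven levels. In capillary endothelium the lower quartile, median and upper quartile were 1816, 2278 and 2773 CPM. In Schwann cells of mouse 1 they were 2144, 2513 and 2933 CPM, in pericytes of mouse 1 they were 486, 977 and 1383 CPM, and in Rgs5-high smooth muscle of that mouse 7.95, 133 and 406 CPM. So the low summed level of Rgs5-high smooth muscle in mouse 1 went with many cells near 0 and with a low upper range, since its highest cell had 1159 CPM. With every cell thinned to 50000 counts, which left none out, H2-D1 was found in 205 of 206 capillary cells, or 99.5% (95% exact binomial interval from 97.3% upward, 100% unthinned). It was found in 87.3% of the mouse 1 pericytes (98.4% unthinned) and in 66.2% of the mouse 1 Rgs5-high smooth muscle cells (53.4 to 77.4%, and 87.7% unthinned).

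Psmb8 and Tap1 were detected in fewer cells of every class. Psmb8 had a count in 77.7% of thinned capillary cells (71.4 to 83.2%, and 91.3% unthinned), in 36.5, 50 and 33.3% of pericytes of mice 1 to 3, in 12.3, 25 and 26.7% of Rgs5-high and in 15.4 and 14.8% of Rgs5-low smooth muscle cells. In Schwann cells it was 70.6, 91.7 and 43.8%. Each pericyte share lay above each smooth muscle share. In mouse 3, where the summed pericyte level was low, the shares were close and came from only 9 pericytes and 15 Rgs5-high cells. Tap1 had a count in 43.2% of capillary cells, 22.2 to 31.3% of pericytes and 5.13 to 13.3% of smooth muscle cells after thinning. Nlrc5 had one in 9.22% of capillary cells, 30.0% of macrophages of double-reporter mouse 3, and 0 to 3.08% of smooth muscle cells in each mouse. These intervals cover the sampling of cells within 1 mouse only, and the counts carry no molecular identifiers.

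Among cells of 1 class and mouse, how closely the genes followed each other differed between classes. Spearman's rho between H2-D1 and B2m, at 50000 counts per cell, was 0.44 over the 206 capillary cells, 0.61 over the 213 interstitial fibroblasts of mouse 3, 0.45 over the 34 Schwann cells and 0.50 over the 63 pericytes of mouse 1, and 0.26 over its 65 Rgs5-high smooth muscle cells. H2-D1 against H2-K1 gave 0.33, 0.67, 0.44, 0.27 and −0.01 in the same order. In capillary endothelium, H2-D1 gave 0.01 with Tap1 and 0.13 with Psmb8, and Psmb8 gave 0.24 with Psmb9. In the pericytes of mouse 1, H2-K1 gave 0.23 with B2m, 0.30 with Psmb8 and 0.31 with Psmb9, so there Psmb8 and Psmb9 followed H2-K1 as closely as B2m did. These cells share their mouse, plate and depth, and the values are descriptions.

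The balance of immunoproteasome and constitutive subunits differed over the classes. Per kilobase of exon, the ratio of Psmb8 to Psmb5, the subunit it replaces, was 1.24, 1.22 and 2.78 in Schwann cells of the double-reporter mice and 3.87 in those of C57BL/6 mouse 1. It was 1.42 in capillary endothelium, 0.731 in endocardium and 1.51 in macrophages of double-reporter mouse 3. It was 0.0627, 0.125 and 0.00809 in Rgs5-high smooth muscle, so every Schwann value was above every smooth muscle value, while pericytes ranged over 0.416, 1.98 and 0.0786. Interstitial fibroblasts had 0.332 ± 0.113 (SD, n = 3 mice) and valve-like fibroblasts 0.134 ± 0.0137 (SD, n = 3 mice). The ratio of Psmb9 to Psmb6 was 0.585 in endocardium and 0.429 in capillary endothelium, 0.100 to 0.165 in double-reporter Schwann cells and 0.0044 to 0.0184 in smooth muscle. Psmb5 itself was 80.5 to 94.99 CPM in Rgs5-high smooth muscle and 85.5 CPM in capillary endothelium, so the ratio moved there with Psmb8. In Schwann cells Psmb5 was 79.4, 80.3 and 19.8 CPM in the double-reporter mice and 31.8 CPM in C57BL/6 mouse 1. The Schwann ratios of 2.78 and 3.87 thus stood on low Psmb5, at 50 and 59 counts. The pericyte ratio of 1.98 stood on 36.2 CPM of Psmb5, at 75 counts. Exon length was again taken over all transcripts, at 3381 bases for Psmb8 and 3660 for Psmb9. The size of a ratio, and whether it passes 1, depends on that length, whereas the order of the classes does not. No test was made of these ratios.

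**Figure D4:**
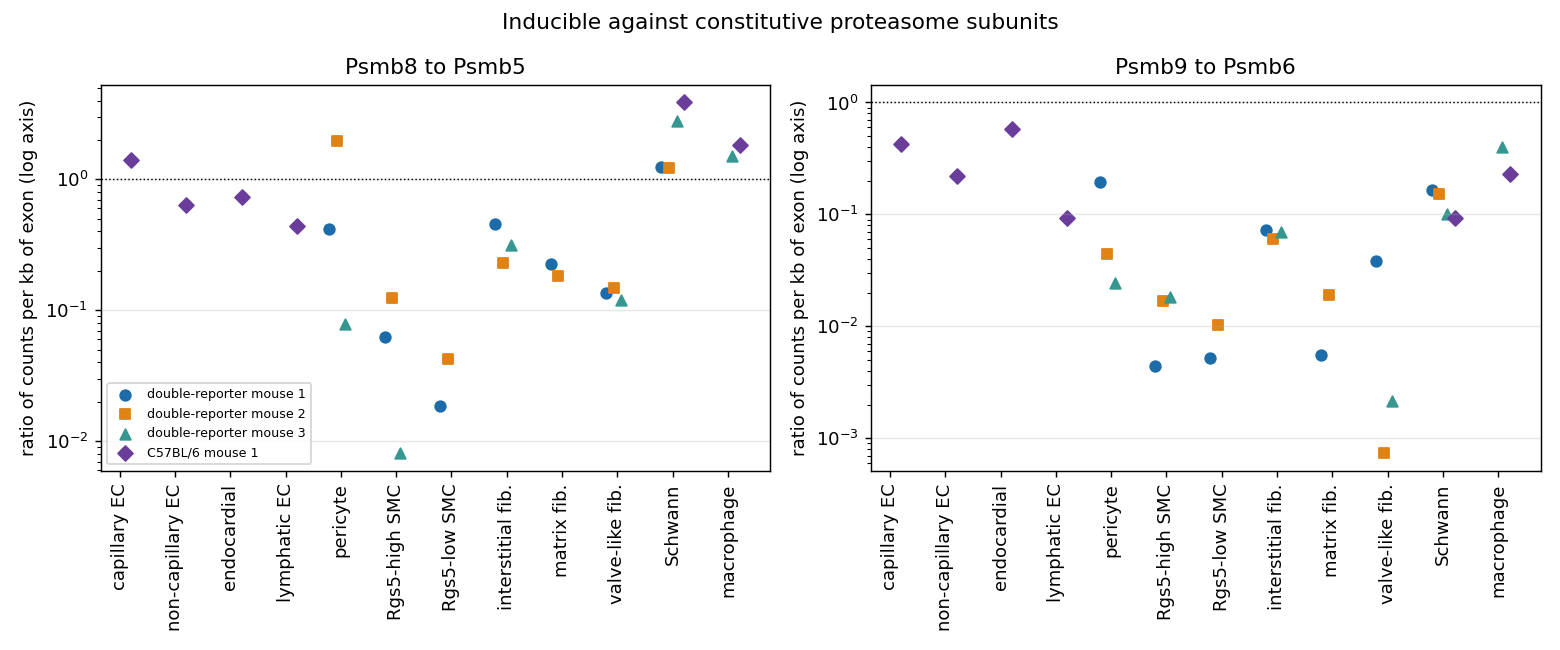
Ratio of the immunoproteasome subunit to the constitutive subunit it replaces, per kilobase of exon and on a log axis, for Psmb8 over Psmb5 and Psmb9 over Psmb6, by cell class with 1 point for each mouse. Schwann cells and capillary endothelium lie above 1 for Psmb8 over Psmb5, and Rgs5-high smooth muscle lies at or below 0.125. Exon length is taken over all transcripts of a gene, and the size of the ratios depends on it.

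The other genes of the pathway were read from lists. Of 10 peptide loading and trimming genes, such as Calr, Canx and Pdia3, of 14 constitutive proteasome genes, of 12 class Ib and class I-like genes and of 6 class II genes, none passed edgeR's test between pericytes and either smooth muscle class or between Schwann cells and interstitial fibroblasts. At an unadjusted p under 0.05, which 11.9, 12.4 and 16.8% of all genes reached in these comparisons in that order, the class Ib list had 3, 5 and 1 genes, the loading list 1 in each, the class II list 0, 2 and 0, and the constitutive proteasome list none. In pericytes against Rgs5-high and Rgs5-low smooth muscle, the median changes were 1.34 and 2.63 for the class Ib list, 0.18 and −0.06 for the loading list, 0.66 and −2.81 for the class II list and −0.19 and 0.01 for the constitutive proteasome list, against −0.16 and −0.08 for all genes. H2-T23, a nonclassical heavy chain, differed by 2.56 (SE 0.727, edgeR adjusted p = 0.121) and 3.09 (SE 0.879, adjusted p = 0.11). Differences between lists were not tested. Of 16 interferon signalling genes, Ifnar2, a subunit of the type I interferon receptor, was higher in pericytes than in Rgs5-high smooth muscle by 2.10 (edgeR adjusted p = 0.0113), with mean levels of 124 and 28.9 CPM. The only one of the 16 called in Schwann cells was Rfx5, a subunit of the RFX complex that binds MHC promoters (edgeR adjusted p = 0.0373). Its Schwann sums held 0 to 0.643 CPM, against 10.4 to 96.3 CPM in interstitial fibroblasts. Each call is 1 of 16 genes, where 1.28% of all genes were called in the pericyte and 5.16% in the Schwann comparison.

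Of 24 interferon-stimulated genes, Ly6e, which encodes a surface protein, was higher in pericytes by 2.68 against Rgs5-high (edgeR adjusted p = 0.0350) and by 4.80 against Rgs5-low smooth muscle (adjusted p = 0.00439), with mean levels of 379, 64.3 and 14.4 CPM. Rtp4, a receptor transport protein, was higher by 5.34 in the second of these comparisons (edgeR adjusted p = 0.0150). The list thus had 1 and 2 of 24 genes called, where 1.28 and 1.59% of all genes were. At an unadjusted p under 0.05 it had 2 of 24 genes against Rgs5-high and 13 of 24 against Rgs5-low smooth muscle. Of all genes, 11.9 and 12.4% reached that p, so the first count is no higher than the share of all genes. The median changes of the list were 1.08 and 2.45. Summed, the list stood at 2286, 1723 and 1582 CPM in pericytes, 1028, 1009 and 332 CPM in Rgs5-high and 410 and 309 CPM in Rgs5-low smooth muscle. It was 3940 to 4831 CPM in double-reporter Schwann cells, 1551 to 3475 CPM in interstitial fibroblasts and 7338 CPM in capillary endothelium. Matrix fibroblasts had 641 and 1474 CPM and valve-like fibroblasts 1386, 1036 and 342 CPM, so these overlapped with Rgs5-high smooth muscle.

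Over the 26 sums of all 12 classes, 4577 genes were ranked by Pearson's r with the mean standardised level of H2-D1, H2-K1 and B2m. The 8 genes outside the group with the highest r were H2-T23 at 0.91, Gm20496 at 0.89, Gm21970 at 0.86, the redox regulator Txnip at 0.83, the ERK phosphatase Dusp6 at 0.83, Gm15441 at 0.82, the antiviral gene Bst2 at 0.82 and Marcks, a substrate of protein kinase C, at 0.82. H2-D1, H2-K1 and B2m themselves had 0.98, since they make up the mean. Gm20496 lies antisense over Psmb8 and Tap2, Gm21970 overlaps Ifnar2 on the same strand and Gm15441 lies antisense to Txnip, so reads of these pairs may be shared. H2-T23 shares 50-base windows with both H2-D1 and H2-K1, so its reads may also be mixed with theirs. Among the members, Psmb8 had 0.88 at rank 6, whereas Tap2 had 0.57 at rank 128, Tapbp 0.49 at rank 214 and Tap1 0.48 at rank 225. H2-T23 averaged 118 CPM in pericytes, 21.9 CPM in Rgs5-high smooth muscle and 244 CPM in capillary endothelium. These sums share mice and plates, and the correlations are descriptions over classes.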

How the data were processed

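The authors deposited 1 table of raw read counts per gene and cell, from Smart-Seq2 libraries of sorted heart cells. The submitters' processing notes name bcl2fastq, Bowtie, Bowtie2, Subread and featureCounts with GRCm38 (mm10); versions, order and strand setting are not given in the sources used here.

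Each cell is a GEO sample and the mouse is the replicate. The members and gene lists were chosen with earlier results of these data known, and the class level, the margin and the promoter patterns were set with the files in view. A cell joined the class with the highest mean log2(CPM + 1) of its markers if their geometric mean was at least 50 CPM and led the next class by at least 1 on the log2 scale. No doublet caller was run, and 90 cells fell under that margin. Counts were summed per class and mouse with at least 5 cells, CPM being taken over all genes of the table. These sums were tested with edgeR 4.0.16 (R 4.3.3; TMM, filterByExpr, quasi-likelihood, mouse as a block since sums of 1 mouse come from the same animal, adjusted p under 0.05). Same-mouse sums deviated from their class means with a median correlation of 0.04 (−0.02 to 0.12 over 52 pairs), against −0.03 for sums of different mice. Fits were tested on simulated data. Named genes were all 9 members, the largest called changes in fixed lists and the 8 non-members most like H2-D1, H2-K1 and B2m. Alternatives included DESeq2 1.42.0, no block, other filters and class levels, and leaving out each mouse. Classes of endothelium came from 1 mouse and were not tested.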

Additional observations from a re-analysis of the deposited data

How the results depend on the processing

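Alternatives were run for 8 comparisons, and no member that passed in these changed sign under any of them. The other class pairs, with calls such as Psmb8 and Tap2 against Schwann cells, had no alternative run. Among members that did not pass, 35 of 144 values changed sign for pericytes against interstitial fibroblasts, and for pericytes against Rgs5-high smooth muscle Tap1 went from 0.75 to −0.72 and Tap2 from 0.64 to −0.043 without the cells that held macrophage, lymphocyte or endothelial markers. Leaving out 1 mouse at a time put that Tap1 change between −0.69 and 2.45.

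Leaving out 1 mouse at a time gave 0 to 2 of 9 members for pericytes against Rgs5-high smooth muscle (3 reported), 0 to 4 against Rgs5-low smooth muscle (3 reported) and 0 to 2 for Schwann cells against interstitial fibroblasts (2 reported). Without the marker-holding cells 1 member passed in each of these 3 comparisons, fewer cells being summed. For pericytes against Rgs5-low smooth muscle, 1 passed with only cells of 100000 counts and 2000 genes, and DESeq2 called 6. For Schwann cells against interstitial fibroblasts DESeq2 called 4, and 1 passed without the mouse as a replicate block, without scaling, without the filter on low counts, with at least 10 cells per sum, with double the class level, without the top cell of each sum and, chosen after seeing the data, with a margin of 2 on the log2 scale. For Schwann cells between strains DESeq2 called 2 members and the fit without the filter 1, where edgeR called 0. Leaving the block out changed no other count of members called by over 1.5 times. The cause of these shifts was not tested. Shares of all genes called under the alternatives are not given here, so these counts do not compare the members with other genes. A margin of 0.5 and the Pecam1 or Cdh5 limit were also chosen after seeing the data. The strain comparison was not run without marker-holding cells, without the top cell, without Pecam1 or Cdh5 cells or with a margin of 2, since fewer than 5 cells of C57BL/6 mouse 1 were left.

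The summed CPM of H2-D1, H2-K1 and B2m was 6000 in capillary endothelium, 5967 with double the class level and 6232 as a mean over cells. It was 5400 in endocardium (5200 and 5682 in the same order) and 3832 in lymphatic cells (3605 and 3971), and 4109 in non-capillary endothelium with 4317 as a mean over cells. Without marker-holding cells it was 1074 in Rgs5-high smooth muscle (949 reported) and 1142 in Rgs5-low smooth muscle (1063 reported). Nlrc5 and Tap1 had no count in most cells of smooth muscle, and the part of depth in this was not tested.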
